A study of Mus musculus with 101 samples.

Results

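The adrenergic receptor genes of mouse fat described here are Adrb3, Adrb1, Adra2a, Adra1a and Adra1d, 5 of the 24475 genes counted in both tables of the series. They were chosen by name, and all 5 passed the low-count filter in every fit. Messenger RNA of epididymal and subcutaneous fat of male C57BL/6NTac mice was measured in 101 libraries. In the first experiment, wild-type mice on chow received an AAV8 vector that drove mouse Inhbe (mInhbe) or, as control, GFP in the liver, with 10 libraries per group and depot. In the second, mice without Inhbe (KO) and wild-type (WT) mice ate a high-fat diet (HFD) or chow and received no vector. Epididymal fat gave 8 KO HFD, 8 WT HFD, 7 KO chow and 8 WT chow libraries, and subcutaneous fat gave 8, 7, 7 and 8. No age, length of diet or design of the knockout allele is given in the labels. Inhbe encodes the subunit of activin E, a hormone of the TGF-beta family that the liver secretes.

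Noradrenaline from sympathetic nerves and adrenaline from the adrenal gland tell fat cells to release stored fat. The beta receptors, of which the beta 3 form encoded by Adrb3 is the typical one of rodent fat cells, act through the G protein Gs to raise cyclic AMP, which activates protein kinase A and through it the lipases of the fat droplet. The alpha 2A receptor (Adra2a) acts through Gi to lower cyclic AMP and brakes lipolysis. The alpha 1 receptors (Adra1a, Adra1d) act through Gq and phospholipase C to raise calcium. Adra1d is best known from vascular smooth muscle, and Adrb1 is the main beta receptor of the heart and is also found in fat.

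Places are from RefSeq's annotation of GRCm38.p6, and strands and exon lengths are from the GENCODE annotation. Adrb3 (Entrez ID 11556) lies on chromosome 8 at 27225776 to 27230845, minus strand, and its exons cover 3376 bases. Adrb1 (11554) lies on chromosome 19 at 56722117 to 56725150, plus strand, with 3382 exon bases. Adra2a (11551) lies on the same chromosome at 54045259 to 54048982, plus strand, with 4832 exon bases. Adra1a (11549) lies on chromosome 14 at 66635251 to 66771240, plus strand, with 8728 exon bases. Adra1d (11550) lies on chromosome 2 at 131545357 to 131562497, minus strand, with 1899 exon bases. A long non-coding gene that the tables do not list, Gm45470, overlaps Adrb3, and Gm39938 and Gm14285 overlap Adra1d. Whether counting used the strand is not given in the sources used here, so reads of such partners may stand in the counts of Adrb3 and Adra1d.

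The RefSeq promoter table of GRCm38.p6 held 2 of the 5 genes, Adra2a and Adrb1. They are the pair on chromosome 19, and both had lower levels in epididymal than in subcutaneous fat in each group of the AAV experiment, as described further on. The windows run 5′ to 3′ on the plus strand, at chr19:54045009-54045308 for Adra2a and chr19:56721867-56722166 for Adrb1. Capitals mark TGACG, the core of a cAMP response element, and GGGCGG, the motif of SP and KLF factors, found on either strand.
Adra2a: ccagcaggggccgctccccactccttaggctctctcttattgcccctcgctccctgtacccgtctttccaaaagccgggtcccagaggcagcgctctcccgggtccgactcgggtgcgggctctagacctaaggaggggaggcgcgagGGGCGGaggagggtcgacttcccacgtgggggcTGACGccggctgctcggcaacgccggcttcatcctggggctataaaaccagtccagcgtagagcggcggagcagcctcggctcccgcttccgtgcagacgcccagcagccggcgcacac
Adrb1: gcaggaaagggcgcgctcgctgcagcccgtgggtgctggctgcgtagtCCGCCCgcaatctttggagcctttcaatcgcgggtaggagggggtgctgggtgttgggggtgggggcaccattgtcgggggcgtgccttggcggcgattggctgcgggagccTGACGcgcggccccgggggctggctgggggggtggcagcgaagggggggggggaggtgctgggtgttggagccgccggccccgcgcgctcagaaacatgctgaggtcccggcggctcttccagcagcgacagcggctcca
Each window held TGACG 1 time and GGGCGG 1 time, with GGGCGG on the minus strand in Adrb1, and the matches did not overlap. Of 32851 promoter windows of this length, 20.81% held TGACG and 35.66% held GGGCGG on either strand. G and C made up 68.67% of the Adra2a window and 72.33% of the Adrb1 window. A match is a description of the letters only.

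Library totals ran from 12970509 to 20170746 estimated counts. Levels are in CPM, counts per 1e+06 of the library total, and 3 counts stood for 0.149 to 0.231 CPM. Ranges and overlaps of libraries are in these CPM. Fold changes use the TMM scale of the test instead, so they can differ from ratios of mean CPM. Inhbe itself had 4 to 232 counts in epididymal and 35 to 846 counts in subcutaneous fat of mInhbe mice and 0 in every GFP library. In the KO experiment Inhbe had at most 5 counts in any library, so fat could not check the genotype. The summed level of 12 fat-cell markers was 16330 CPM or more in every library, and none of the 12 was at 0 in a whole group. Epididymis markers ran from 0.378 to 16775 CPM over the epididymal libraries and stayed at or below 1.17 CPM in subcutaneous ones. Some libraries stood apart. GFP epididymal library 7 had 3.09 CPM of epididymis markers, and its neighbour library 8 had 1298 CPM of brown-fat markers and 3190 CPM of skeletal muscle markers. Lymph node markers lay between 8.6 and 14.0 CPM in WT chow subcutaneous library 1 and WT HFD subcutaneous libraries 1, 2 and 4. Liver markers reached 1203 and 4702 CPM in WT HFD epididymal libraries 4 and 5, 235 CPM in WT HFD subcutaneous library 6 and 430 CPM in KO HFD subcutaneous library 2. The fat-cell marker sum was lowest, 18862 to 24616 CPM, in WT chow subcutaneous libraries 6, 7 and 8. GFP subcutaneous library 2 was also left out where libraries standing apart were removed. In pieces of whole fat, fewer cells of a type and less RNA per cell cannot be told apart.

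Adrb3 was the most abundant of the 5 transcripts per length in all 12 groups. Its mean level ran from 11.3 CPM per kilobase in WT HFD epididymal fat to 152 CPM per kilobase in KO chow epididymal fat. Over the groups, the mean of Adra1d was 2.14 to 5.70 CPM per kilobase and that of Adra1a 1.26 to 2.74. Adrb1 had 0.614 to 1.67 CPM per kilobase, and Adra2a, the lowest in every group, had 0.183 to 0.980. Adra1d stood second in 11 of 12 groups, and Adra1a (2.74) stood above it (2.14) in KO HFD subcutaneous fat. Adrb1 stood above Adra1a in GFP subcutaneous fat (1.67 and 1.56) and in WT chow epididymal fat (1.27 and 1.26), and below it in the other groups.

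Ordered by mean level per kilobase, the 12 groups stood as follows for Adrb3. The top was held by KO chow (152) and WT chow (150.2) epididymal fat, then GFP epididymal (113) and GFP subcutaneous (103). KO chow subcutaneous (94.9) and WT chow subcutaneous fat (75.7) came next, then the mInhbe groups, subcutaneous (68.8) and epididymal (68.3). The HFD groups closed the order with KO epididymal (61.9), KO subcutaneous (31.0), WT subcutaneous (11.9) and WT epididymal fat (11.3). Neighbours in this order overlapped in every case, and this was so for each of the 5 genes. The tables of the 2 experiments were made apart, so the order across experiments is a description.

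**Figure D1:**
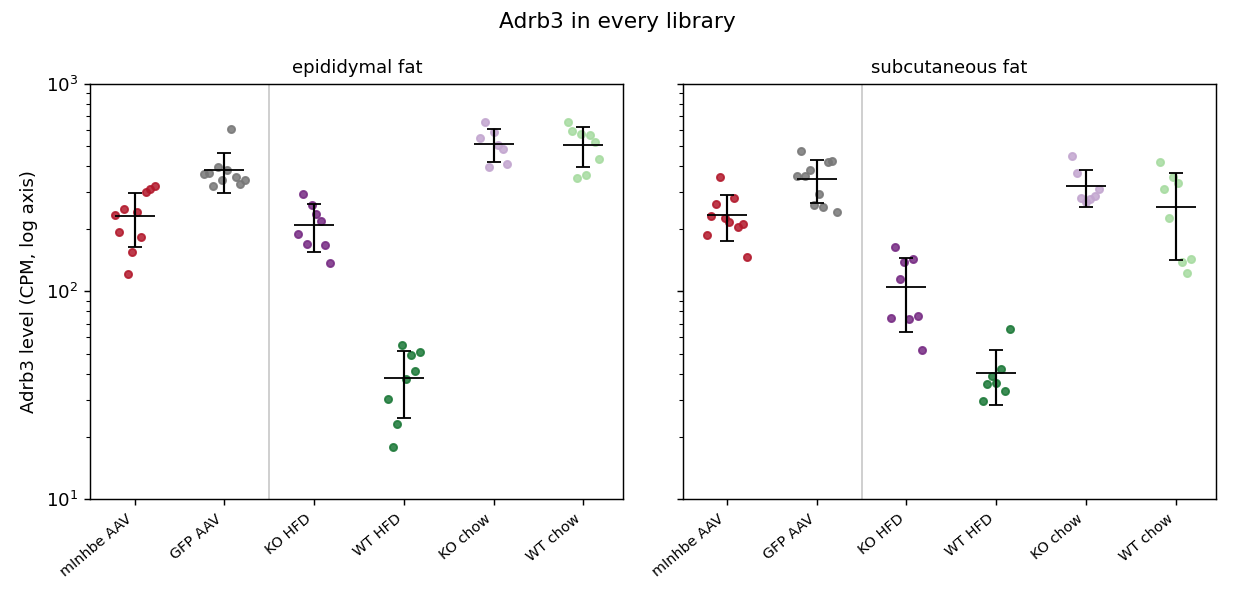
Adrb3 level in CPM on a log axis, 1 point per library, by group in epididymal fat (left) and subcutaneous fat (right). The WT HFD libraries lie at the bottom of both panels, at 17.8 to 55.1 CPM in epididymal and 29.7 to 65.8 CPM in subcutaneous fat, with 1 KO HFD library inside the subcutaneous range.

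The first comparison asks how the receptors differed in fat of chow-fed mice that received the mInhbe vector. Inhbe transcript was also found in that fat, so Inhbe made in liver and in fat cannot be told apart here. In epididymal fat, Adrb3 fell by 0.73 on the log2 scale, and the other 4 receptors did not pass the test. Adrb3 had 121 CPM in the lowest, 237 in the median and 321 in the highest mInhbe library, against 322, 361 and 608 CPM in GFP libraries. All 10 mInhbe libraries thus lay below all 10 GFP libraries, although the highest of the one and the lowest of the other nearly met. The means were 231 ± 67.8 CPM in mInhbe and 382 ± 83.0 CPM in GFP fat (SD, n = 10 each), and the log2 fold change was -0.73 ± 0.17 (SE; adjusted p = 0.0334). Of all genes tested 1.16% were called in this comparison, and 231 of 14850 had a lower log2 fold change than Adrb3.

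This call was a narrow one. It ended without 6 of the 20 libraries in turn, namely GFP libraries 1 and 4 and mInhbe libraries 1, 2, 5 and 6, where the adjusted p reached at most 0.0588. Without GFP libraries 7 and 8, which stood apart, the log2 fold change was -0.60 (adjusted p = 0.0583). None of the 12 fat-cell markers passed the test, with sums of 16330 to 37909 CPM in mInhbe and 21151 to 36304 CPM in GFP fat. With the score of these markers as a covariate the value for Adrb3 was -0.48 (adjusted p = 0.0701), and the part of fat-cell content in the result was not tested further. Adrb1, also a beta receptor, had 2.40 ± 0.967 CPM in mInhbe and 3.54 ± 1.57 CPM in GFP epididymal fat, a log2 fold change of -0.55 ± 0.24 (adjusted p = 0.396).

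In subcutaneous fat of mInhbe mice Adrb3 and Adra1d fell, 2 of 5 receptors where 27.2% of all genes were called. Adrb3 ranged over 147, 221 and 356 CPM (lowest, median and highest library) with mInhbe and over 242, 359 and 473 CPM with GFP. The groups overlapped, with 7 of 10 mInhbe libraries below all GFP libraries. The log2 fold change was -0.67 ± 0.15 (adjusted p = 0.00376), from means of 232 ± 57.5 CPM in mInhbe and 347 ± 80.2 CPM in GFP fat.

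Adra1d, the alpha 1D receptor of the vessel wall, had 4.07, 5.65 and 9.20 CPM in the lowest, median and highest mInhbe library and 6.13, 9.81 and 22.0 CPM in GFP libraries. Here 6 of 10 mInhbe libraries lay below all GFP libraries. The log2 fold change was -0.87 ± 0.22 (adjusted p = 0.00731). Adrb1 had 1.76, 2.97 and 9.58 CPM with mInhbe and 3.32, 5.10 and 10.8 CPM with GFP, and 6 of 10 mInhbe libraries lay below all GFP libraries. Its log2 fold change of -0.68 ± 0.27 missed the threshold (adjusted p = 0.0648), and without mInhbe library 4, the one at 9.58 CPM, it was -0.997 (adjusted p = 0.00181). Adra1a gave -0.34 ± 0.15 (adjusted p = 0.0880) and the brake receptor Adra2a 0.22 ± 0.18 (adjusted p = 0.374). Adra2a averaged 4.74 ± 1.01 CPM in mInhbe and 3.81 ± 1.51 CPM in GFP subcutaneous fat.

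Some tissue markers also passed the test with the vector in subcutaneous fat. Their counts lie near the 27.2% of all genes called in this comparison. Of 12 fat-cell markers 4 were lower in mInhbe fat, with sums of 21742 to 32044 CPM against 25926 to 32476 CPM in GFP fat. Of 13 lymph node markers 3 were higher, with sums of 926 to 1991 CPM in mInhbe and 675 to 1500 CPM in GFP fat. With the fat-cell score as a covariate Adrb3 stood at -0.47 (adjusted p = 0.0919) and Adra1d at -0.38 (adjusted p = 0.300). With the lymph node score they stood at -0.53 (adjusted p = 0.104) and -0.45 (adjusted p = 0.315). Calls were lost over all genes too, with 3.88% called with the fat-cell score and 2.07% with the lymph node score. Of 11 smooth muscle and pericyte markers 3 were higher and none lower in mInhbe fat (median sum 745 CPM against 634 CPM in GFP fat). The part of vessel content in the result for Adra1d was not tested.

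The effect of the vector was not shown to differ between depots for any receptor. The difference, epididymal minus subcutaneous, was -0.06 ± 0.23 for Adrb3 (95% interval -0.51 to 0.38; adjusted p = 0.875), where 13.5% of genes were called. For Adra1d it was 0.68 ± 0.30 (adjusted p = 0.110), the 1 receptor with an unadjusted p under 0.05 in edgeR. DESeq2 called 0 receptors and limma-voom called Adra1a (0.50, adjusted p = 0.0435), where limma-voom called 30.5% of all genes.

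**Figure D2:**
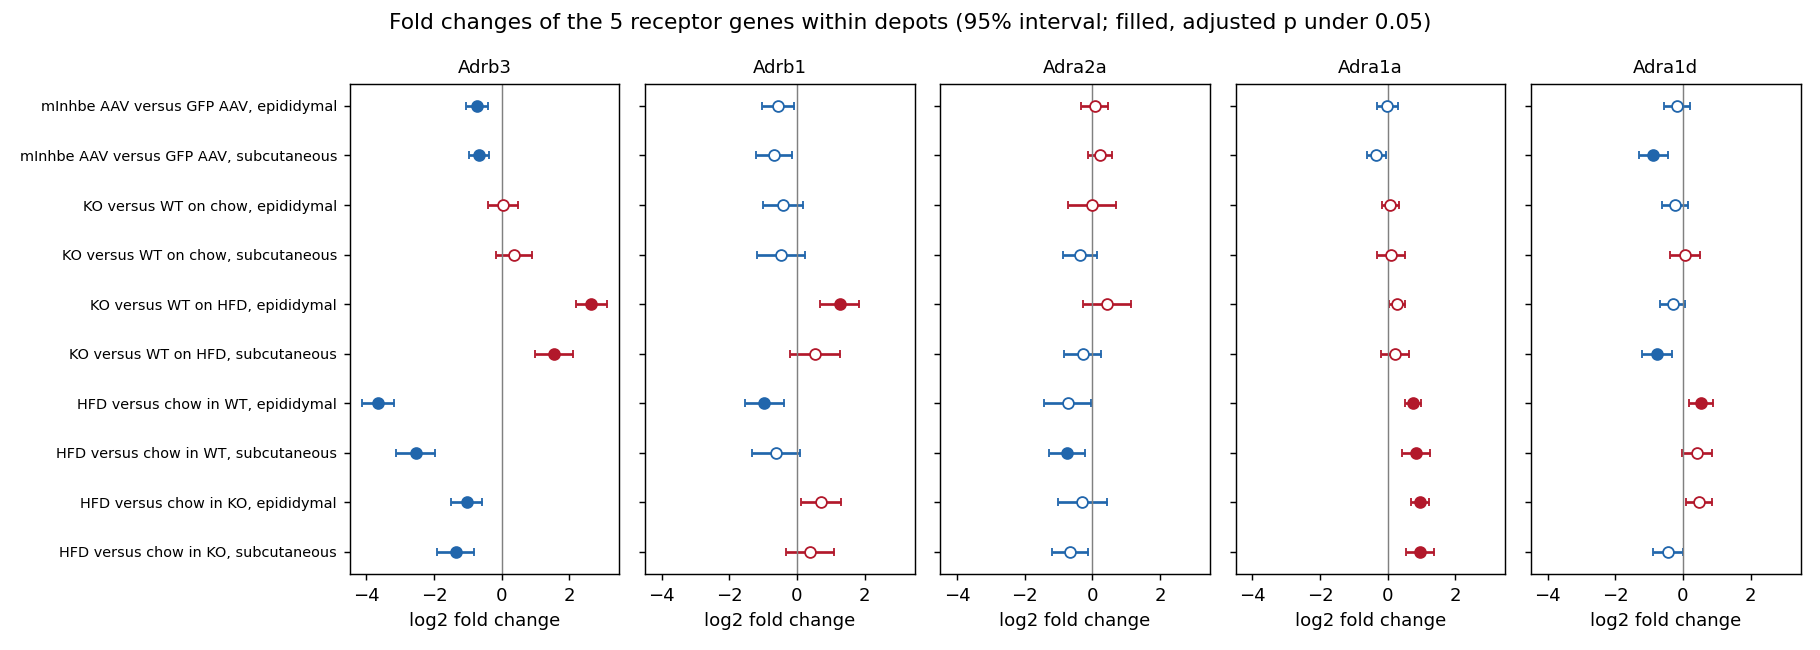
Log2 fold change of each receptor gene in the 10 comparisons within a depot, with its 95% interval. Filled points have an adjusted p under 0.05. Adrb3 lies highest for KO against WT on HFD in epididymal fat (2.65) and lowest for HFD against chow in WT epididymal fat (-3.65).

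On chow, no receptor passed the test between KO and WT in either depot, and 0 of 5 had an unadjusted p under 0.05 in edgeR or a call in DESeq2 or limma-voom. Adrb3 had 397, 508 and 650.5 CPM (lowest, median, highest) in KO and 352, 545 and 652 CPM in WT epididymal fat. The groups covered nearly the same range, and the log2 fold change was 0.04 ± 0.23 with a 95% interval of -0.41 to 0.49. In subcutaneous fat Adrb3 had 269, 288 and 446 CPM in KO and 122, 267 and 421 CPM in WT mice. All 7 KO libraries lay above the WT mean of 255 CPM, and the log2 fold change was 0.36 ± 0.28 (95% interval -0.18 to 0.90; adjusted p = 0.977). The other 4 receptors lay between -0.42 and 0.07 in epididymal and between -0.47 and 0.10 in subcutaneous fat, the lower end being Adrb1 in both. Of all genes 0.658% were called in epididymal and 0.253% in subcutaneous fat on chow.

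On HFD the same comparison set KO far above WT for Adrb3, and in epididymal fat Adrb1 rose with it. Adrb3 had 137, 203 and 296 CPM in the lowest, median and highest KO epididymal library, against 17.8, 39.6 and 55.1 CPM in WT libraries. No KO library overlapped with WT. The level was 6.27-fold higher in KO, a log2 fold change of 2.65 ± 0.23 (adjusted p = 4.39e-10), and 18 of 15042 genes had a higher one. Adrb1 had 3.19, 3.89 and 6.36 CPM in KO and 1.10, 1.91 and 3.43 CPM in WT epididymal fat, with 6 of 8 KO libraries above all WT libraries. Its log2 fold change was 1.26 ± 0.30 (adjusted p = 0.00104). In this comparison 37.2% of all genes were called.

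The alpha receptors of epididymal fat did not pass the test between KO and WT on HFD. Adra1a averaged 18.5 ± 3.46 CPM in KO and 17.1 ± 2.57 CPM in WT (SD, n = 8 each), a log2 fold change of 0.28 ± 0.12 (adjusted p = 0.0699), which passed with limma-voom (0.31, adjusted p = 0.0215). Adra1d averaged 6.23 ± 1.56 CPM in KO and 8.82 ± 2.03 CPM in WT, at -0.30 ± 0.18 (adjusted p = 0.212), against -0.55 (adjusted p = 0.00851) with limma-voom. Adra2a was near the limit of counting, with 0.243, 1.27 and 1.46 CPM in KO and 0.0666, 0.887 and 2.29 CPM in WT libraries, which were 1 to 45 counts in WT. Its value of 0.43 ± 0.36 has a 95% interval of -0.27 to 1.13, so neither direction is shown at these counts and this spread between libraries.

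Markers of fat cells and of macrophages moved along in epididymal fat on HFD. Of 12 fat-cell markers 11 were higher in KO, with sums of 31203 to 38638 CPM against 17027 to 33573 CPM in WT. All 8 macrophage markers were lower in KO, at 733 to 1725 CPM in sum against 3182 to 4105 CPM in WT. Of all genes 37.2% were called in this comparison. With the fat-cell score as a covariate Adrb3 remained higher in KO at 1.09 (adjusted p = 0.0120), while Adrb1 turned to -0.25 (adjusted p = 0.760). Adra1d was then lower in KO at -1.15 (adjusted p = 0.0113). Without WT libraries 4 and 5, which held liver transcript, Adrb3 stood at 2.75 (adjusted p = 6.98e-09). The plot of Adrb3 against the fat-cell sum shows both levels for each library.

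**Figure D3:**
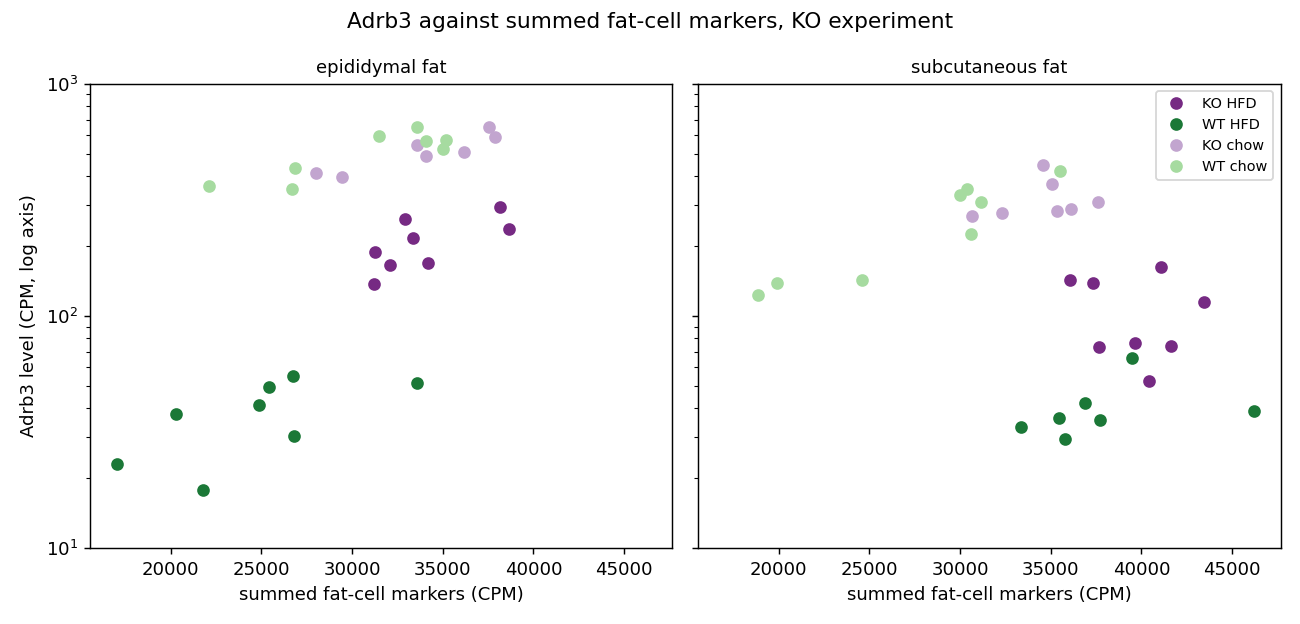
Adrb3 level in CPM on a log axis against the summed level of 12 fat-cell markers in CPM, 1 point per library of the KO experiment, epididymal fat left and subcutaneous fat right. In subcutaneous fat the sums of KO HFD (36050 to 43428 CPM) lie within those of WT HFD (33365 to 46212 CPM), while 7 of 8 KO libraries lie above all WT libraries for Adrb3.

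In subcutaneous fat on HFD, Adrb3 rose and Adra1d fell in KO, where 18.9% of all genes were called. Adrb3 had 52.4, 95.7 and 163 CPM in KO and 29.7, 36.2 and 65.8 CPM in WT libraries, and 7 of 8 KO libraries lay above all WT libraries. The level was 2.93-fold higher in KO, a log2 fold change of 1.55 ± 0.29 (adjusted p = 0.000285), and 61 of 14220 genes had a higher one. With the fat-cell score as a covariate the value was 1.18 (adjusted p = 0.000260), and without the libraries that stood apart it was 1.18 (adjusted p = 0.0337).

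Adra1d had 2.88, 3.86 and 5.74 CPM in KO and 4.39, 7.36 and 11.0 CPM in WT subcutaneous libraries on HFD. Of the 8 KO libraries 5 lay below all WT libraries, and the log2 fold change was -0.78 ± 0.23 (adjusted p = 0.0146). Without the libraries that stood apart, 4 of the 7 in WT and 1 of the 8 in KO, it was -0.27 (adjusted p = 0.535). Markers of the vessel wall moved the same way: 5 of 11 smooth muscle and pericyte markers were lower in KO (418 to 598 CPM in sum, against 582 to 911 CPM in WT), as were 4 of 7 endothelial markers (620 to 800 CPM against 738 to 1375 CPM). The share of all genes called in this comparison was 18.9%, and the part of vessel content in the result was not tested. Adrb1, at 4.03 ± 1.11 CPM in KO and 3.11 ± 0.841 CPM in WT, did not pass (0.53 ± 0.37, adjusted p = 0.324), nor did Adra2a (-0.28 ± 0.28) or Adra1a (0.22 ± 0.21).

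In WT epididymal fat on HFD the beta receptors Adrb3 and Adrb1 fell and the alpha 1 receptors Adra1a and Adra1d rose, 4 of 5 receptors where 54.1% of all genes were called. Adrb3 was 12.5-fold lower on HFD, at 17.8 to 55.1 CPM against 352 to 652 CPM on chow, with no overlap. This was a log2 fold change of -3.65 ± 0.24 (adjusted p = 1.87e-13), and 17 of 15042 genes had a lower one. Adrb1 had 1.10, 1.91 and 3.43 CPM on HFD and 2.33, 3.27 and 10.9 CPM on chow. Here 5 of 8 HFD libraries lay below all chow libraries, and the log2 fold change was -0.97 ± 0.30 (adjusted p = 0.00678).

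Adra1a had 13.4, 16.7 and 21.5 CPM in the lowest, median and highest WT HFD epididymal library and 8.87, 9.89 and 17.0 CPM on chow. All 8 HFD libraries lay above the chow mean, and the log2 fold change was 0.74 ± 0.12 (adjusted p = 8.44e-06). Adra1d had 6.09, 8.42 and 12.5 CPM on HFD and 3.24, 6.68 and 8.88 CPM on chow, with 7 of 8 HFD libraries above the chow mean. Its log2 fold change was 0.53 ± 0.18 (adjusted p = 0.0160). Adra2a averaged 0.882 ± 0.657 CPM on HFD and 1.56 ± 0.297 CPM on chow and did not pass (-0.72 ± 0.36, adjusted p = 0.0848). Without WT HFD library 3, its highest at 2.29 CPM, it was -1.12 (adjusted p = 0.00702).

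Along with this, 8 of 12 fat-cell markers were lower on HFD in WT epididymal fat, at 17027 to 33573 CPM in sum against 22086 to 35195 CPM on chow. All 8 macrophage markers were higher, at 3182 to 4105 CPM against 659 to 1052 CPM. These counts stand beside 54.1% of all genes called. With the fat-cell score as a covariate Adrb3 stood at -2.48 (adjusted p = 1.56e-08) and Adrb1 at 0.15 (adjusted p = 0.778). The part of fat cells and macrophages in these differences was not tested further.

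In WT subcutaneous fat, 3 of 5 receptors were called on HFD, against 44.1% of all genes. Adrb3 was 5.83-fold lower, at 29.7 to 65.8 CPM on HFD and 122 to 421 CPM on chow, again with no overlap (-2.54 ± 0.30, adjusted p = 7.44e-08). Adra1a rose, with 15.2, 22.9 and 28.6 CPM on HFD and 8.01, 13.3 and 22.1 CPM on chow (0.84 ± 0.21, adjusted p = 0.00198). Adra2a fell, with 1.02, 1.37 and 4.08 CPM on HFD and 2.16, 3.19 and 7.13 CPM on chow (-0.75 ± 0.27, adjusted p = 0.0245). That call rested on few libraries. Without WT chow libraries 6, 7 and 8 Adra2a stood at -0.36 (adjusted p = 0.375), and leaving out WT chow library 7 or WT HFD library 2, 4, 5 or 7 alone ended it (adjusted p up to 0.0626). Without the 3 chow libraries Adrb3 stood at -2.91 (adjusted p = 1.48e-09) and Adrb1 passed at -1.02 (adjusted p = 0.0273), against -0.62 ± 0.37 (adjusted p = 0.172) with them. Fat-cell markers were higher in 4 and lower in 2 of 12, with sums of 33365 to 46212 CPM on HFD and 18862 to 35485 CPM on chow.

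In KO mice on HFD, Adrb3 fell and Adra1a rose in both depots, 2 of 5 receptors where 38.7% of all genes were called in epididymal and 20.7% in subcutaneous fat. Adrb3 had 137 to 296 CPM on HFD and 397 to 650.5 CPM on chow in epididymal fat, with no overlap (-1.04 ± 0.23, adjusted p = 0.000627). In subcutaneous fat it had 52.4 to 163 CPM on HFD and 269 to 446 CPM on chow, also with no overlap (-1.35 ± 0.28, adjusted p = 0.000699). Adra1a had 13.9, 17.8 and 23.7 CPM on HFD and 7.72, 11.8 and 14.3 CPM on chow in epididymal fat, with 7 of 8 HFD libraries above all chow libraries (0.96 ± 0.13, adjusted p = 1.11e-06). In subcutaneous fat Adra1a had 21.9, 23.2 and 26.0 CPM on HFD and 9.06, 16.1 and 17.7 CPM on chow, with no overlap (0.96 ± 0.21, adjusted p = 0.00161).

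Adrb1 did not fall on HFD in KO mice. It gave 0.71 ± 0.30 in epididymal fat (adjusted p = 0.0615), with all 8 HFD libraries above the chow mean, and 0.39 ± 0.37 in subcutaneous fat (adjusted p = 0.490). Adra1d gave 0.47 ± 0.19 (adjusted p = 0.0536) in epididymal and -0.43 ± 0.23 (adjusted p = 0.182) in subcutaneous fat. Adra2a had 0.901, 1.31 and 1.91 CPM (lowest, median and highest) on HFD and 1.89, 2.37 and 3.86 CPM on chow in KO subcutaneous fat, with 7 of 8 HFD libraries below all chow libraries. Its log2 fold change of -0.67 ± 0.27 missed the threshold (adjusted p = 0.0804). It passed with limma-voom (-0.63, adjusted p = 0.00405), in a fit of only the groups compared (-0.68, adjusted p = 0.00763) and without the libraries that stood apart (-0.67, adjusted p = 0.0432). In KO epididymal fat Adra2a gave -0.30 ± 0.37 (adjusted p = 0.535).

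**Figure D4:**
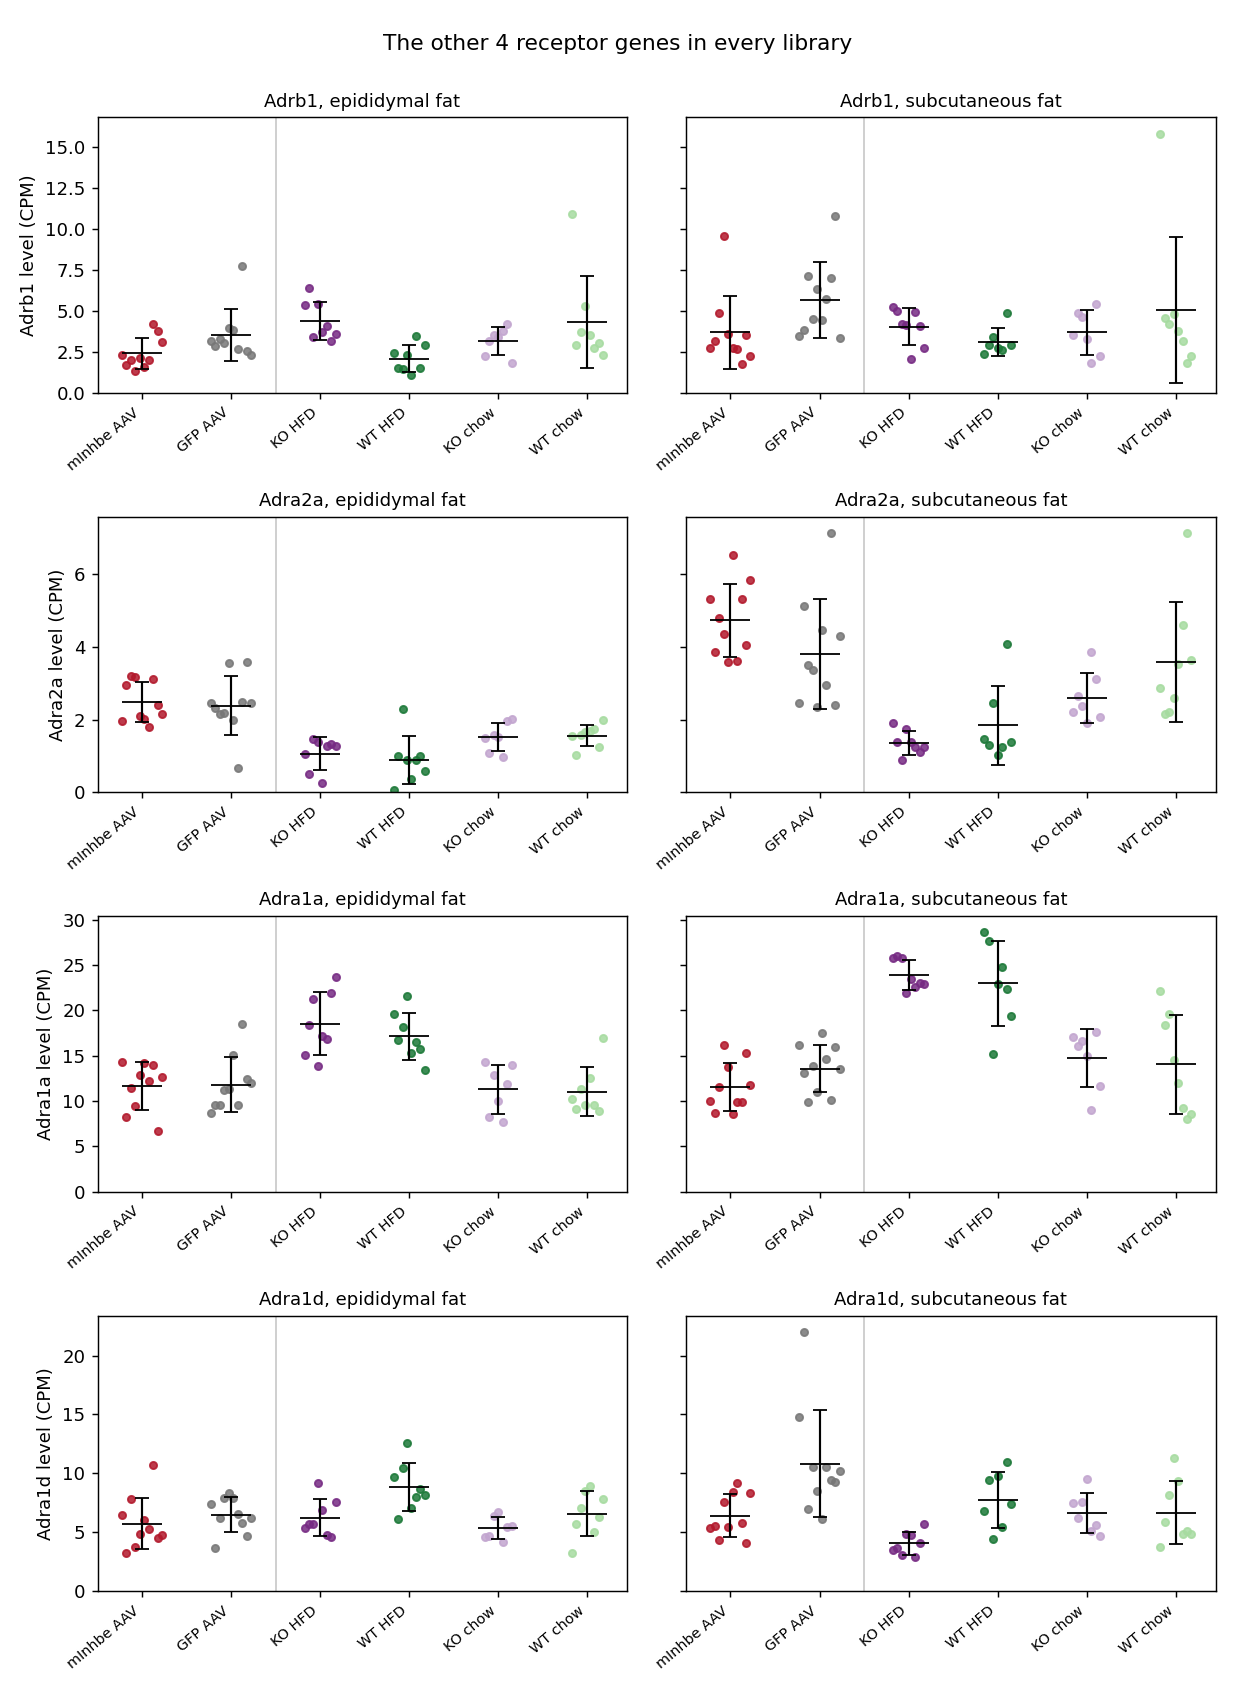
Levels in CPM of Adrb1, Adra2a, Adra1a and Adra1d, 1 point per library, with the mean and SD of each group, epididymal and subcutaneous fat in separate panels. Adra1a lies higher on HFD (13.4 to 28.6 CPM) than on chow (7.72 to 22.1 CPM) in both depots and genotypes, and the groups overlap in all but KO subcutaneous fat.

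Whether the effect of the knockout depended on diet was tested as an interaction, the KO effect on HFD minus that on chow. In epididymal fat 2 of 5 receptors were called, against 16.5% of all genes. For Adrb3 the interaction was 2.61 ± 0.32 (adjusted p = 2.52e-06), and for Adrb1 it was 1.68 ± 0.42 (adjusted p = 0.00549). Adrb3 and Adrb1 thus differed in their response to the knockout between diets, while Adra2a (0.43 ± 0.51), Adra1a (0.21 ± 0.18) and Adra1d (-0.06 ± 0.27) were not called. With the fat-cell score as a covariate the value of Adrb1 was 0.50 (adjusted p = 0.541).

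In subcutaneous fat edgeR called no receptor interaction, against 2.14% of all genes, while 2 of 5 had an unadjusted p under 0.05, DESeq2 called 0 and limma-voom 1. Adrb3 stood at 1.19 ± 0.40 (adjusted p = 0.120). Without WT chow subcutaneous libraries 6, 7 and 8, which had the lowest fat-cell sums of their group, it was 1.57 (adjusted p = 0.00716). Of 40 alternatives 3 gave a call for Adrb3: this one, limma-voom and the fat-cell score as a covariate. The shares of all genes called under them were 3.04, 17.8 and 3.92%.

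Between depots, the KO effect on HFD was larger for Adrb3 in epididymal than in subcutaneous fat by 1.08 ± 0.35 (adjusted p = 0.0313), where 14.6% of all genes were called. The HFD effect in WT differed by -1.15 ± 0.35 (adjusted p = 0.00868; 33.3% of genes), and this was -0.75 (adjusted p = 0.108) without WT chow subcutaneous libraries 6, 7 and 8. No receptor was called for the HFD effect in KO mice, against 3.96% of all genes (Adrb3 0.25 ± 0.36). Adra1d was the 1 receptor with an unadjusted p under 0.05 (0.82 ± 0.30, adjusted p = 0.116), and DESeq2 and limma-voom called 0. For the KO effect on chow no gene at all was called by edgeR, with 311 genes at an unadjusted p under 0.05, while DESeq2 called 19 and limma-voom 2, none of them a receptor.

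The level of the receptors in epididymal against subcutaneous fat was compared within each group. The labels do not say whether depots with the same number came from the same mouse, so these fits treat them as separate. Adra2a was called lower in epididymal fat in 4 of 6 groups. It averaged 2.49 ± 0.560 CPM in epididymal and 4.74 ± 1.01 CPM in subcutaneous fat of mInhbe mice, with no overlap (-0.92 ± 0.19, adjusted p = 7.86e-05). In GFP mice it averaged 2.39 ± 0.819 and 3.81 ± 1.51 CPM in epididymal and subcutaneous fat (-0.76 ± 0.20, adjusted p = 0.000873). In WT chow mice it had 1.03, 1.63 and 1.98 CPM in epididymal and 2.16, 3.19 and 7.13 CPM in subcutaneous fat, with no overlap (-1.14 ± 0.31, adjusted p = 0.00218), and -0.79 (adjusted p = 0.0678) without WT chow subcutaneous libraries 6, 7 and 8. In WT HFD mice it was -1.17 ± 0.33 (adjusted p = 0.00327), and -0.95 (adjusted p = 0.0592) without the libraries that stood apart. The values in KO mice were also negative but not called. Adra2a gave -0.77 ± 0.33 in KO chow mice (adjusted p = 0.0644), which passed under 4 of 6 alternatives, and -0.46 ± 0.32 in KO HFD mice (adjusted p = 0.237).

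Adrb1 was lower in epididymal than subcutaneous fat in both AAV groups, at -0.61 ± 0.26 (adjusted p = 0.0415) with mInhbe and -0.75 ± 0.26 (adjusted p = 0.0116) with GFP. The call with mInhbe ended with limma-voom (-0.46, adjusted p = 0.143) and in the fit with a replicate block (-0.59, adjusted p = 0.0527). It was not called in any group of the KO experiment. Adrb3 was higher in epididymal fat in 3 of 6 groups: by 0.92 ± 0.25 in KO HFD (adjusted p = 0.00236), by 0.67 ± 0.26 in KO chow (adjusted p = 0.0378) and by 0.99 ± 0.25 in WT chow mice (adjusted p = 0.000773). The last was 0.60 (adjusted p = 0.0566) without WT chow subcutaneous libraries 6, 7 and 8. In the chow-fed mice of the AAV experiment Adrb3 gave 0.01 ± 0.16 with mInhbe and 0.07 ± 0.16 with GFP, and in WT HFD mice -0.16 ± 0.26, none of them called.

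Adra1a was lower in epididymal fat of KO HFD (-0.46 ± 0.17, adjusted p = 0.0281) and WT HFD mice (-0.53 ± 0.18, adjusted p = 0.0156), the second being -0.22 (adjusted p = 0.410) without the libraries that stood apart. Adra1d was lower in epididymal fat of GFP mice (-0.83 ± 0.21, adjusted p = 0.000770) and higher in that of KO HFD mice (0.53 ± 0.21, adjusted p = 0.0329), where limma-voom gave 0.30 (adjusted p = 0.223) and ended the call. Over all genes 64.7, 64.5, 41.8, 40.8, 36 and 43.1% were called between depots in mInhbe, GFP, KO HFD, WT HFD, KO chow and WT chow mice, so most of these receptor counts stand near the background. Epididymis tissue was present in many epididymal libraries, as given above, and its part in these differences was not tested.

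Within a library, the count of Adrb3 over that of Adra2a sets the lipolytic receptor against the brake without any scaling between libraries. In epididymal fat on HFD its median was 175 in KO (107 to 972) and 58.9 in WT libraries (10.1 to 456). On chow it was 363 in KO (204 to 595) and 332 in WT libraries (216 to 574). In subcutaneous fat on HFD the median was 74.3 in KO (38.8 to 128) and 27.4 in WT (8.13 to 47.9), and on chow 139 in KO (71.9 to 203) and 98.2 in WT (17.2 to 147). The WT HFD group held the lowest median in each depot, and its ranges overlapped with those of KO HFD. With mInhbe the median was 99.8 in epididymal (38.0 to 149) and 53.3 in subcutaneous fat (25.2 to 81.9), against 150 (91.3 to 917) and 97.3 (56.1 to 176) with GFP. The value of 456 is that of the WT HFD library with 1 count of Adra2a. The highest values in KO HFD (972) and GFP epididymal fat (917) also rest on few Adra2a counts, 4 and 12. No test was made on the ratios, since the differences of their parts are given above.

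**Figure D5:**
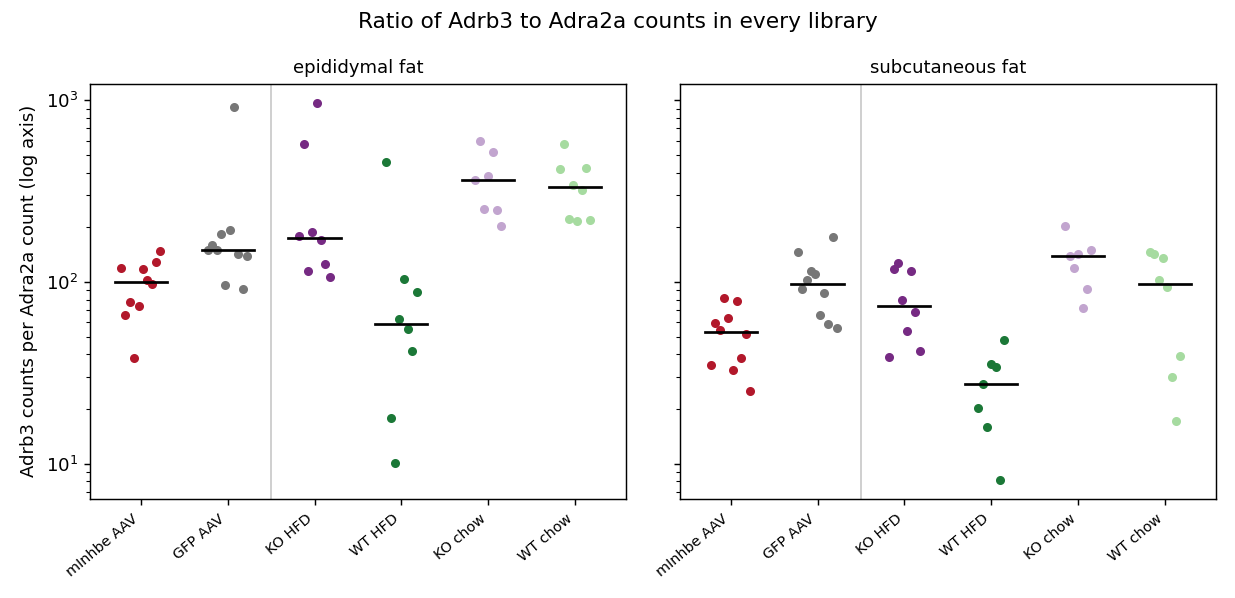
Count of Adrb3 divided by the count of Adra2a in each library on a log axis, by group and depot, with the group's median as a black line. WT HFD libraries hold the lowest medians, 58.9 in epididymal and 27.4 in subcutaneous fat.

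Of the other adrenergic receptor genes, Adra1b, Adra2b and Adra2c, few passed. Adra2c was lower in KO than in WT subcutaneous fat on HFD, at 0.296 and 0.799 CPM (-1.26 ± 0.37, adjusted p = 0.0175). The KO level is near the limit of counting, since 3 counts stood for 0.149 to 0.231 CPM. Adra2c was higher on HFD than on chow in WT subcutaneous fat (adjusted p = 0.0179). It was lower on HFD in KO epididymal fat (-1.57, adjusted p = 0.00189). Adra1b was lower on HFD in WT epididymal fat (-0.81, adjusted p = 0.0101) and in KO subcutaneous fat (-0.70, adjusted p = 0.0380). Of all genes, 18.9% were called for KO against WT on HFD in subcutaneous fat. For HFD against chow the share was 44.1% in WT subcutaneous and 54.1% in WT epididymal fat. In KO fat it was 38.7% in epididymal and 20.7% in subcutaneous fat.

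Downstream of the receptors, the lists were chosen with results of these data known, and their counts are descriptions. Each count is to be read against the share of all genes called, which was 37.2% for KO against WT epididymal and 18.9% for subcutaneous fat on HFD, 54.1% for HFD against chow in WT epididymal fat, and 1.16% in epididymal and 27.2% in subcutaneous fat with mInhbe. Transcripts of the 6 lipolysis genes (Lipe, Pnpla2, Plin1, Abhd5, Mgll and G0s2) were all higher in KO than in WT epididymal fat on HFD. Their median log2 fold change was 0.93 against 0.0060 over all genes tested. Pnpla2, the adipose triglyceride lipase, rose by 1.35 ± 0.18 (adjusted p = 6.85e-07), and its coactivator Abhd5 by 0.87. The 6 include G0s2, an inhibitor of that lipase, which rose by 0.55 (adjusted p = 0.0101). Fat-cell markers were higher in the same libraries, as given above, and 3 of the 6 (Lipe, Pnpla2 and Plin1) also belong to the 12 markers. On HFD against chow in WT epididymal fat 4 of the 6 were lower, with a median of -0.85 against -0.019, among them hormone-sensitive lipase Lipe (-1.07 ± 0.16, adjusted p = 1.17e-06). In subcutaneous fat of KO against WT mice on HFD 1 of 6 passed, Abhd5 at 0.54. With mInhbe, 1 of 6 was lower in subcutaneous fat, Mgll at -0.66 ± 0.17 (adjusted p = 0.00707), with a list median of -0.44 against -0.0021, and 0 of 6 passed in epididymal fat.

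Of 8 protein kinase A subunits and anchors, 4 were higher and 0 lower in KO than in WT epididymal fat on HFD, where 37.2% of all genes were called, with a median of 0.41. The catalytic subunit Prkaca rose by 0.84 ± 0.12 (adjusted p = 1.19e-06) and the mitochondrial anchor Akap1 by 0.56. Prkaca also fell in mInhbe subcutaneous fat (-0.56 ± 0.15, adjusted p = 0.00975), where 2 of 8 were lower. Of 9 adenylyl cyclases, which make cyclic AMP, 1 was higher and 3 lower in KO epididymal fat on HFD, with Adcy6 at 0.66 and Adcy7 at -1.42 ± 0.13 (adjusted p = 4.39e-10). Adcy7 is known mainly from immune cells, and macrophage markers were lower in the same libraries. Of 8 G protein subunits 3 were higher and 2 lower there, with the same background of 37.2%, and Gnao1 at 1.17 and Gnai2 at -0.55.

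Among 6 receptor kinases and arrestins, which switch receptors off, 1 was higher and 3 were lower in KO than in WT epididymal fat on HFD, against 37.2% of all genes called. Grk5 rose by 0.81 and Arrb2 fell by 0.99 (SE 0.11, adjusted p = 1.31e-08). Of 9 phosphodiesterases, which break down cyclic AMP, 3 were higher and 1 lower, with the fat-cell form Pde3b at 1.04 ± 0.20 (adjusted p = 0.000105) and Pde8a at -0.46. Pde3b also rose in KO subcutaneous fat on HFD (0.71 ± 0.21, adjusted p = 0.0170) and fell on HFD in WT epididymal fat (-1.68 ± 0.20, adjusted p = 3.84e-08). Of 11 members of the phospholipase C arm used by Adra1a and Adra1d, 1 was higher and 2 were lower in KO epididymal fat on HFD, among them Rgs2 at -1.02 and Plcb2 at -0.81. On HFD in WT epididymal fat 2 were higher and 5 lower, against 54.1% of all genes called, with Prkca at -0.93 and Rgs5 at -1.22. With mInhbe in subcutaneous fat 4 of the 11 were higher and 0 lower, with Rgs5 at 0.50 and Plcb1 at 0.54, and 3 of 9 phosphodiesterases were higher and 0 lower, with Pde7a at 0.55 and Pde3a at 0.50, where 27.2% of all genes were called. The shares of called members in these lists mostly lie near those of all genes, so nothing particular to the lists is read from them.

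For each receptor, the genes with the most similar pattern over libraries were named by the smaller of the Pearson r of log2(CPM + 0.5) in the 40 AAV and the 61 KO libraries, among the 13800 genes that averaged 1 CPM or more in both tables. The points share depots, groups and depth, so r is a description. Adrb3 was followed by Pfkfb1 (0.746), Gsn (0.744), Sqor (0.729), Cdkn2c (0.712) and Gm15417 (0.712). Adrb1 was followed by Hadh (0.632), Auh (0.583), Pnpla2 (0.579), Idh3g (0.579) and Tob1 (0.577). Nearest to Adra2a stood Sema4a (0.801), Itga2b (0.781), Arhgap27 (0.781), Gtpbp1 (0.767) and Mllt6 (0.755). The nearest of Adra1a were lower, Lrrc27 (0.565), Myom3 (0.555), Stom (0.539), Cyp2u1 (0.538) and Mmab (0.536). Adra1d had Arsa (0.686), Kctd10 (0.662), Tgm2 (0.660), Nagpa (0.659) and Ube2g2 (0.657). The 5 lists share no gene.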

How the data were processed

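The authors deposited estimated counts in 2 tables (40 AAV and 61 KO libraries), with 24475 Entrez gene IDs. They were rounded to whole numbers, since 2.937% of cells were not whole within a tolerance of 1e-06; the tests had been planned for raw counts. The labels' protocols describe the KAPA mRNA HyperPrep kit on 500 ng RNA, adapters with unique molecular identifiers (UMIs), 14 PCR cycles and paired reads of 76 cycles. Per the submitters' processing notes the build was mm10. How reads were aligned, counted and collapsed by UMI is not given in the sources used here. Names, places and promoters came from RefSeq's GRCm38.p6, and 24375 IDs had a symbol. The labels list 7 WT HFD subcutaneous libraries where the series text gives 8 mice, and the labels were followed. They call the libraries biological replicates, and the p-values measure the spread between them. None was a copy of another: among 383 pairs of the same group, the index of spread, 1 for counting noise, was 6.19 to 427.

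Low counts were filtered with filterByExpr (groups known, minimum count of 10 and total of 15), TMM set the library scale, and edgeR 4.0.16 ran its quasi-likelihood F test (robust) on all genes and all groups of a depot and experiment, or of both depots for depot comparisons and depot interactions. Calls were made at an adjusted p (Benjamini-Hochberg) under 0.05. All adjusted p-values are from this test unless another tool is named. SE is derived from the log2 fold change and F, and 95% intervals from the SE by the normal distribution. CPM per kilobase divides by the exon bases, which came from the GENCODE annotation. Genes named beyond the receptors were the 2 called members of each list with the smallest adjusted p and, for similarity of pattern, the top 5. Members, lists and rules were chosen with earlier results of these data known. The software was DESeq2 1.42.0, limma 3.58.1, R 4.3.3, matplotlib 3.10.9 and Python 3.11.15, and the fits were tested on simulated data. Alternatives were RLE size factors, DESeq2, limma-voom, no low-count filter, a replicate block, marker scores as covariates, a fit of only the groups compared, and leaving out libraries. Leaving out single libraries, WT HFD epididymal 4 and 5, or WT chow subcutaneous 6 to 8 was added after seeing the data. Replicate numbers were not taken to pair libraries. In 0 of 20 pairs of groups was every correlation of same-numbered libraries over 0.1 (range -0.653 to 0.738). Depots of the same mouse need not correlate in this way, so the check cannot exclude shared mice.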

Additional observations from a re-analysis of the deposited data

Results flagged for a closer look

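Of 60 sets of libraries (5 receptors in 12 groups), 10 held a library far from the others by Dixon's test, which chance gives in about 1 of 20 sets. For Adrb3 these were GFP epididymal library 7 at 608 CPM, with the next at 398 CPM, and WT HFD subcutaneous library 7 at 65.8 CPM, with the next at 42.1 CPM. GFP epididymal library 7 also had the fewest epididymis transcripts of its group and the highest fat-cell marker sum, 36304 CPM.

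For Adrb1 there were 6 such libraries, all high. They were mInhbe subcutaneous library 4 (9.58 CPM, next 4.87), GFP subcutaneous library 9 (10.8 CPM, next 7.13), GFP epididymal library 8 (7.76 CPM, next 3.92), WT HFD subcutaneous library 6 (4.88 CPM, next 3.39), WT chow subcutaneous library 1 (15.8 CPM, next 4.78) and WT chow epididymal library 1 (10.9 CPM, next 5.26). Of these, GFP epididymal library 8, WT HFD subcutaneous library 6 and WT chow subcutaneous library 1 also stood apart by markers of other tissues. Adra2a had WT HFD epididymal library 3 at 2.29 CPM, with the next at 0.994 CPM, and Adra1a had WT chow epididymal library 8 at 17.0 CPM, with the next at 12.6 CPM.

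Effects that differed between groups, 4 of 35 interactions tested on receptors, were those of the KO effect between diets in epididymal fat for Adrb3 (2.61) and Adrb1 (1.68), of the KO effect on HFD between depots for Adrb3 (1.08) and of the HFD effect in WT between depots for Adrb3 (-1.15).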

How the results depend on the processing

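Over 2095 values of the receptors under alternatives, 1914 kept their direction and side of the threshold, 32 lost and 50 gained a call, 2 called values changed sign and 97 uncalled values did. The cause of these shifts was not tested. The 2 reversals came with the fat-cell score as a covariate, for Adrb1 in epididymal fat: KO against WT on HFD (-0.25) and HFD against chow in WT (0.15). Counts of called receptors follow. Leaving out single libraries, run within depots, gave 2 to 4 for mInhbe in subcutaneous fat, 0 to 1 for mInhbe in epididymal fat, 2 to 4 for HFD in WT subcutaneous, 4 to 5 in WT epididymal, 2 to 3 for KO on HFD in epididymal and 2 to 4 for HFD in KO epididymal fat. limma-voom gave 4 for mInhbe subcutaneous and for KO on HFD epididymal (2 in edgeR each), 1 between depots with mInhbe, 2 between depots in KO chow, and 1 where edgeR gave 0 for the diet interaction in subcutaneous fat and for the vector between depots. DESeq2 gave 2 between depots in KO chow (37.8% of all genes called). With limma-voom 41.5% of all genes were called for mInhbe subcutaneous and 43.6% for KO on HFD epididymal. Between depots it called 68.5% with mInhbe and 51.2% in KO chow. For the diet interaction in subcutaneous fat it called 17.8%, and for the vector between depots 30.5%.

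With the replicate block the count was 0 for mInhbe in epididymal fat (Adrb3 -0.75, adjusted p = 0.0915), 1 between depots with mInhbe and 2 between depots in KO chow. Of all genes, 0.512, 63 and 35.5% were called in these comparisons. Whether the numbers pair the libraries is not known. With the fat-cell score the count was 0 for mInhbe in both depots and 1 for the diet interaction in both depots. The shares of all genes called for mInhbe were then 3.6% in epididymal and 3.88% in subcutaneous fat. For the interaction they were 17.9 and 3.92%. With the lymph node score the count was 0 for mInhbe in subcutaneous fat (2.07% of all genes called). A fit of only the groups compared gave 4 for HFD in KO subcutaneous, 2 between depots in KO chow, 1 in WT HFD and 1 for the HFD effect in KO between depots. The shares of all genes called, in that order, were 47.2, 45.3, 26.4 and 9.9%. Without the libraries that stood apart the count was 0 for mInhbe epididymal, 1 for KO on HFD subcutaneous and 0 between depots in WT HFD. Here the shares were 1.1, 14.8 and 36.3%. Without WT chow subcutaneous libraries 6, 7 and 8 the count was 1 between depots in WT chow, 1 for the diet interaction in subcutaneous fat and 0 for the HFD effect in WT between depots. Beside these stood shares of 33.3, 3.04 and 21.1%. Depth limits Adra2a most, which in WT HFD epididymal fat had as few as 1 count.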

Other observations

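Genes that cyclic AMP is known to raise and genes that make or remove noradrenaline were counted in the same fits. Of 11 cAMP-responsive genes, 2 were higher and 1 lower in KO than in WT epididymal fat on HFD, with Fos the lower one (-1.35), and likewise 2 and 1 in subcutaneous fat, against 37.2 and 18.9% of all genes called. On chow 1 of 11 was higher in KO epididymal fat and 0 passed in subcutaneous fat (0.658 and 0.253% of all genes). The summed level of the list in epididymal fat on HFD had a median of 142 CPM in KO (94.2 to 191) and 177 CPM in WT (146 to 237), so it stood lower in KO while Dio2 rose. With mInhbe 4 of 11 were higher in subcutaneous fat (27.2% of all genes called) and 1 of 10 lower in epididymal fat (1.16%). Dio2, the deiodinase that activates thyroid hormone and answers to cyclic AMP in fat, was higher in KO than in WT fat in 3 of 4 comparisons. It rose by 2.76 ± 0.27 (adjusted p = 3.46e-09) in epididymal and by 3.40 ± 0.45 (adjusted p = 3.47e-06) in subcutaneous fat on HFD, and by 2.04 ± 0.29 (adjusted p = 6.95e-05) in epididymal fat on chow, where Adrb3 was at 0.04. Ppargc1a, a coactivator of mitochondrial genes, fell by 1.10 in mInhbe epididymal fat (SE 0.26, adjusted p = 0.0370). Ucp1, the brown-fat uncoupling protein, was higher in mInhbe subcutaneous fat by 1.70 ± 0.50 (adjusted p = 0.0176), while Adrb3 was lower there.

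Of 7 tested genes of noradrenaline synthesis and removal, 1 was higher and 3 were lower in KO than in WT epididymal fat on HFD, and 0 were higher and 3 lower in subcutaneous fat, against 37.2 and 18.9% of all genes called. Slc22a3, an organic cation transporter that takes up noradrenaline, was lower in KO epididymal fat on chow (-0.74 ± 0.10, adjusted p = 5.85e-05) and in KO subcutaneous fat on HFD (-0.75). The monoamine oxidase genes moved in opposite directions in epididymal fat. Maob was at 0.79 and Maoa at -0.65 in KO against WT on HFD, and at -1.38 and 1.38 on HFD against chow in WT.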
